A study of Mus musculus with 82 samples.

Results

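In 3 mouse mammary tumour models, 2153, 2208 and 2250, RNA libraries carrying a number of 3000 or above were set against libraries of the same model carrying a lower number. The number is the one after "CP-" in each library's title, and the labels do not say what it stands for: an order of collection, an animal, a passage and a sequencing run are all possible readings that cannot be told apart here. Of 82 libraries in the series, 29 belong to the comparison. They are 3 upper (numbers CP-4073 to CP-4075) and 4 lower (CP-1977 to CP-2613) of 2153, 3 upper (CP-4046 to CP-4048) and 8 lower (CP-1976 to CP-2631) of 2208, and 6 upper (CP-3056 to CP-3982) and 5 lower (CP-2203 to CP-2827) of 2250. A further library of 2208 has no such number and was left out. Every tumour of the 3 models was untreated and grew in BALB/c mice, and RNA came from cryopreserved pieces. Genotype, age, passage and the animal of origin are not given in the sources used here, so a p value measures the spread among libraries, which may be technical.

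A tumour sample holds malignant epithelium together with immune, vascular, fat and muscle cells of its surroundings, so its RNA can shift through any of them. Oxidative phosphorylation is the set of mitochondrial complexes that make ATP, and its subunits are encoded largely by nuclear genes that are translated on ribosomes and imported. Interferon response genes are switched on by transcription factors such as the IRF family after interferon binds its receptor, and they include antiviral enzymes, guanylate-binding proteins and chemokines that draw T cells. Neutrophils carry S100a8 and S100a9, the subunits of calprotectin, in large amounts, and low oxygen raises genes of glucose uptake and glycolysis.

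The libraries differed in depth between the sides. Total counts, given in Mcounts (mega, SI prefix), were 88.4 to 120 in upper against 29.4 to 82.1 in lower libraries of 2153, 86.9 to 133 in upper against 14.4 to 62.2 in lower libraries of 2208, and 21.3 to 67.6 in upper against 45.1 to 59.1 in lower libraries of 2250. Over the 3 models the mean within-model difference was 38.5 Mcounts (exact stratified permutation test, two-sided, n = 12 upper and 17 lower libraries, p = 0.000364, adjusted over 10 library properties 0.00364). By model it was 50.1 in 2153, 68.7 in 2208 and -3.1 in 2250. Counts in upper libraries also fell more on genes with short annotated transcripts, and the mean length was lower by 182 nt (exact permutation p = 0.00198, adjusted 0.00756). Each gene's length is that of its longest annotated transcript, so the value does not measure the transcripts present. The difference was -46.9 nt in 2153, -312 nt in 2208 and -187 nt in 2250. The sides overlapped in 2153 and in 2250, and in 2208 CP-4046 lay within the lower range. The share of counts from 18S ribosomal RNA was higher by 0.0869 percentage points (exact permutation p = 0.00227, adjusted 0.00756), with a difference of 0.0482, 0.167 and 0.0457 points in 2153, 2208 and 2250. The sides overlapped in each model. The number of genes detected differed by 896 in 2153, 1950 in 2208 and -1330 in 2250 (exact permutation p = 0.24, adjusted 0.4). The share of estimated counts that were whole numbers differed by -0.571, -0.485 and 1.95 percentage points in that order (exact permutation p = 0.367, adjusted 0.458). In 2250 the sides did not overlap in this share. Both tests were on the mean over the models, so opposite differences cancel in them. The hemoglobin share of counts was lower by 0.0231 percentage points (exact permutation p = 0.0153, adjusted 0.0381), a difference that missed the threshold when CP-4073 was left out (0.0204 percentage points lower). The epithelial keratin Krt8 was present in every library, at medians of 1150 CPM in upper against 1220 in lower libraries of 2153, 990 against 810 in 2208, and 1860 against 1260 in 2250. Library CP-1977 of 2153 and CP-1976 of 2208, which differ in model, deviated from their models in the same direction across genes.

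With model as a covariate, 2486 of 19220 tested genes were higher and 1957 lower in upper libraries at an adjusted p under 0.05, which is 12.9% and 10.2% of the genes (edgeR quasi-likelihood test, Benjamini-Hochberg adjustment, as for every adjusted p of a gene below). Within 2153, 770 genes rose and 1157 fell, together 10% of those tested. The higher genes were 40% of these calls, against 61.5% after correction for GC content and transcript length, 57.2% without a filter on low counts and 55% by limma on the authors' table. Within 2208, 2741 rose and 2225 fell, together 25.8%, and the balance turned with the processing. The higher genes were 55.2% of these calls, against 46% with depth as a covariate, 46% after correction for GC content and transcript length, 48.9% by DESeq2 and 78.7% by limma on the authors' table. Within 2250, 736 rose and 250 (1.30%) fell, together 5.13%, and limma on the authors' table gave 199 higher and 1034 lower. For 2528 genes (13.2%) the size of the shift differed among the models by the interaction test, and this count was 1622, 1539 and 1417 without CP-4075 of 2153 and CP-4047 and CP-4048 of 2208. Leaving out single libraries moved the within-model totals by over 1.5 times: in 2153 to 1015, 721 and 840 without CP-4073, CP-4074 and CP-4075, in 2208 to 1808 and 2260 without CP-4047 and CP-4048, and in 2250 to 2246 without CP-3056, 349 without CP-3537, 362 without CP-3539, and 611, 391, 480 and 452 without CP-2203, CP-2620, CP-2621 and CP-2622.

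The 3 models shared a small portion of their shifts. Of the genes called within a model, 608 were called in the same direction in 2153 and 2208, which is 31.6% of the 2153 genes and 12.2% of the 2208 genes, and 60 were called in opposite directions. Between 2153 and 2250, 122 genes went the same way (6.33% and 12.4% of each list) and 24 opposite ways. Between 2208 and 2250, 250 went the same way (5.03% and 25.4%) and 58 opposite ways. For comparison, 10% of all tested genes were called within 2153, 25.8% within 2208 and 5.13% within 2250. These shares count both directions, while the overlap percentages count only genes that went the same way. Whether the overlaps exceed what such shares alone would give was not tested. Across the 19220 genes, which are not independent replicates, Pearson's r of the log2 shifts was 0.121 for 2153 with 2208, 0.159 for 2153 with 2250 and 0.0589 for 2208 with 2250. The scatter of shifts shows this as clouds with little tilt.

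**Figure D1:**
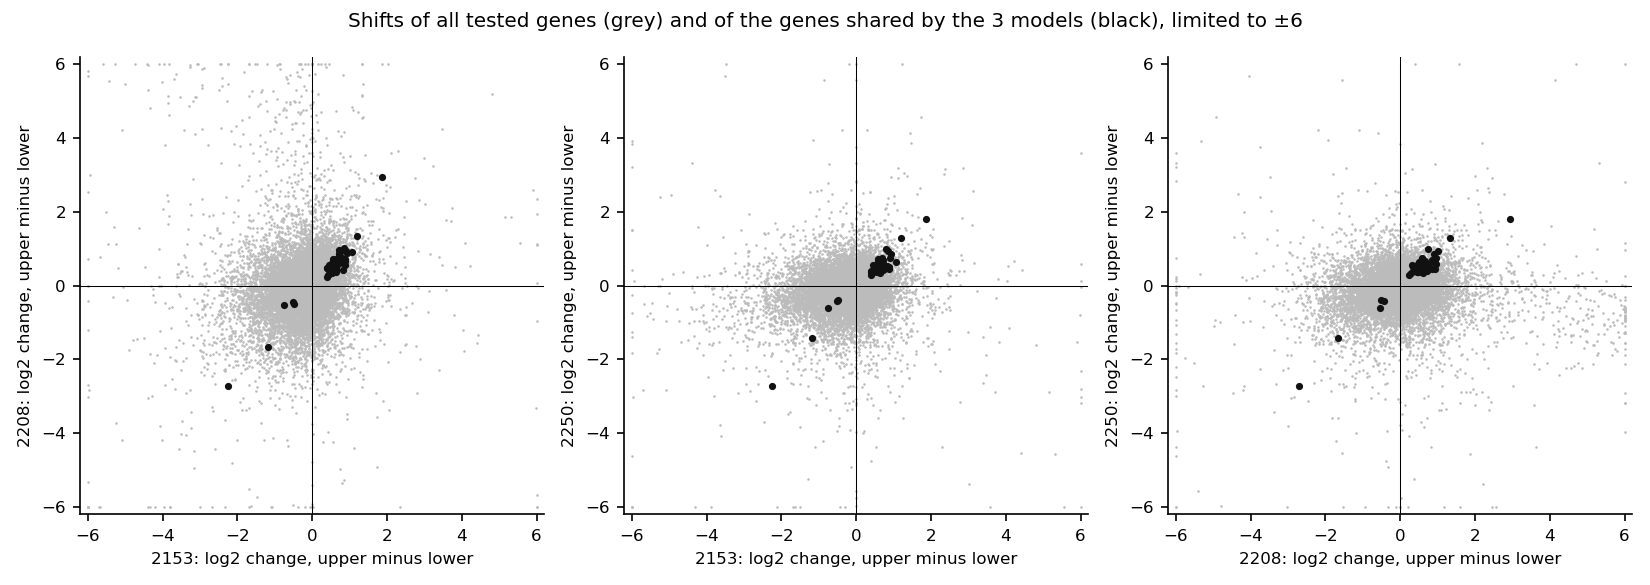
Log2 change, upper minus lower, of each tested gene in one model (x axis) against another (y axis), with values limited to ±6. Grey points are all 19220 genes and black points the 56 called in the same direction in all 3 models, most of them between 0 and 1 on both axes.

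Called in the same direction in all 3 models were 56 genes, 0.291% of those tested, of which 51 (0.265%) were higher and 5 (0.0260%) lower in upper libraries. Among the 51, Lsm4, Lsm6 and Snrpd3 belong to the rings that bind U6 and other spliceosomal RNAs, and Fbl and Nhp2 to the complexes that modify ribosomal RNA. Rps2 is a ribosomal protein, Mrpl20 and Mrpl22 are mitochondrial ribosomal proteins, and Psmd13 and Adrm1 are proteasome subunits. Uqcrc1, Uqcrb and Ndufs6 are respiratory chain subunits, and Tomm40 and Timm23 are channels of protein import into mitochondria. These members were picked from the calls for what they are known to do, and no theme of the 51 was tested.

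Lsm4 lies on chromosome 8, 70673248 to 70678752 (mm10). It had 76.3, 87.0 and 71.9 CPM (counts scaled by library size) in the upper libraries of 2153, against 36.9, 42.6, 43.9 and 42.4 CPM in the lower ones. In 2208 it had 74.7, 142 and 133 CPM in upper libraries, against a lowest value of 52.4, a median of 59.3 and a highest value of 83.4 CPM in lower ones. In 2250 the upper libraries ran from 76.8 through a median of 91.7 to 152 CPM, against 63.9, 55.2, 58.5, 50.2 and 70.9 CPM. The groups did not overlap in 2153 and 2250, and in 2208 CP-4046 lay within the lower range. Over the 3 models Lsm4 rose by 0.88 ± 0.11 (log2, SE, adjusted p = 1.66e-05), with shifts of 0.92, 0.89 and 0.85 in 2153, 2208 and 2250.

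Ndufs6, a subunit of respiratory complex I, lies on chromosome 13, 73319838 to 73328542, where it overlaps Mrpl36. It had 72.4, 81.3 and 67.0 CPM in upper against 30.5, 42.9, 44.7 and 39.6 CPM in lower libraries of 2153, and 62.3, 118 and 97.4 CPM in upper against 34.6 to 63.5 CPM (median 45.5) in lower libraries of 2208. In 2250 it had 74.8 to 133 CPM (median 86.1) in upper against 48.6, 56.1, 57.1, 52.8 and 70.6 CPM in lower libraries, and the groups overlapped only through CP-4046 of 2208. The shift over the models was 0.85 ± 0.10 (adjusted p = 1.74e-05). Sdhaf1, an assembly factor of complex II, rose by 0.69 ± 0.11 (adjusted p = 0.000111) and Mrpl20 by 0.66 ± 0.09 (adjusted p = 3.55e-05). Guk1, the kinase that turns GMP into GDP, rose by 0.74 ± 0.10 (adjusted p = 5.13e-05) and had its lowest value of the lower 2153 libraries, 14.1 CPM, in CP-1977.

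Dohh, the enzyme that completes hypusine on the translation factor eIF5A, and Eif5a itself were both among the 51. Dohh rose by 0.75 ± 0.12 (adjusted p = 9.29e-05), with 91.2, 108 and 85.0 CPM in upper against 42.5, 65.5, 60.3 and 60.1 CPM in lower libraries of 2153. Psmd13 rose by 0.69 ± 0.08 (adjusted p = 1.31e-05), most in 2208, where 111, 167 and 158 CPM in upper libraries stood against 68.9 to 88.1 CPM (median 75.5) in lower ones, and least in 2250, where CP-3056 at 60 CPM lay below every lower library. Tuba1c, an alpha tubulin nearly identical to Tuba1b so that reads between them are uncertain, rose by 0.68 ± 0.10 (adjusted p = 6.53e-05). Sla2 is an adaptor that damps T cell receptor signalling, and its gene overlaps Rab5if. Among the shared higher genes named by size it had the largest shift, 1.28 ± 0.19 (adjusted p = 7.49e-05). Its levels were low, at 4.54 to 5.25 CPM in upper against 1.37 to 3.27 CPM in lower libraries of 2153. Stra13 rose by 0.86 ± 0.13 (adjusted p = 6.85e-05) without overlap between sides in any of the 3 models. Dohh, Sdhaf1, Psmd13 and Slc2a3 each overlap another annotated gene (Sirt3 in the case of Psmd13), so that reads there are uncertain too.

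Of the 5 shared genes that were lower in upper libraries, 2 encode proteins, both zinc finger factors. Zfp655 had 42.0, 38.7 and 43.2 CPM in upper against 63.1, 62.2, 62.5 and 50.5 CPM in lower libraries of 2153, and 40.3, 36.1 and 36.0 CPM against 43.0 to 53.9 CPM (median 52.8) in 2208. In 2250 it had 20.1 to 36.9 CPM (median 29.9) in upper against 40.2, 36.4, 37.2, 43.3 and 33.1 CPM in lower libraries, which overlapped, and it fell by 0.45 on the log2 scale over the models (SE 0.08, adjusted p = 0.000222). Zscan26 fell by 0.45 as well (SE 0.07, adjusted p = 0.000121). The other 3, singled out after their values were seen, are processed pseudogenes: Gm9027 fell by 1.44 (SE 0.18, adjusted p = 1.78e-05) with no overlap in any model, Gm15429 fell by 0.63 and Gm7985 fell by 2.55 at levels of at most 0.648 CPM. Pseudogene reads can be shared with the parent gene, which leaves these values uncertain.

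The plot of genes by library shows both directions side by side.

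**Figure D2:**
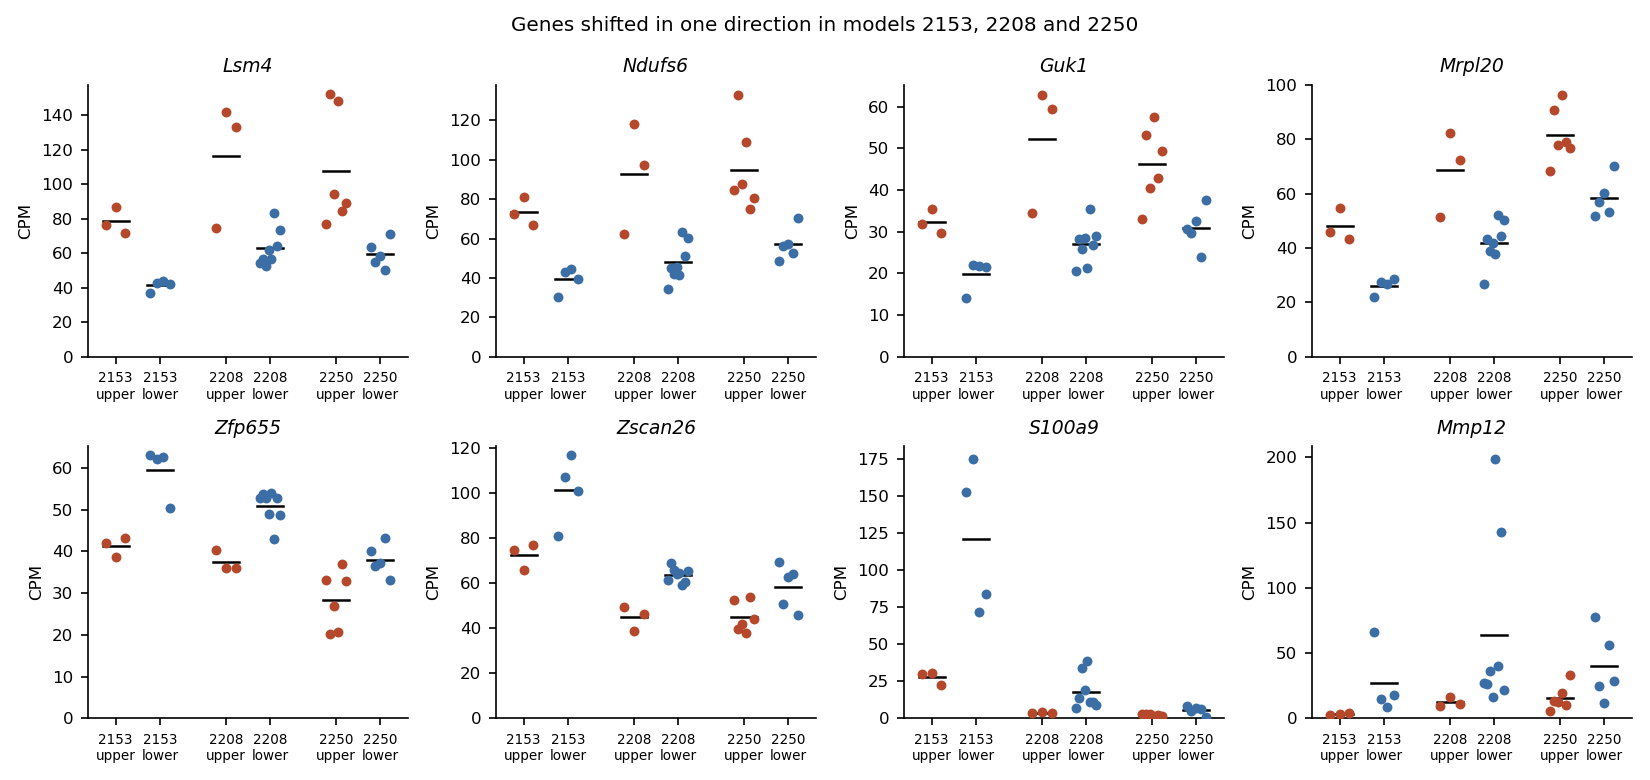
CPM (y axis) of 8 genes in each library of 2153, 2208 and 2250, with upper libraries (red) left of lower ones (blue), points in order of library number and bars at group means. Lsm4, Ndufs6, Guk1 and Mrpl20 were higher in upper libraries of each model, with CP-4046 the lowest of the 3 upper 2208 points, and Zfp655, Zscan26, S100a9 and Mmp12 were lower. S100a9 and Mmp12 are not among the shared genes, because their shift within 2250 did not pass at an adjusted p under 0.05.

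Below the shared genes come 8 named by size under a looser rule, and they are not all the genes that met it. The rule took genes called lower with model as covariate and lower at an unadjusted p under 0.05 in each model. S100a9, a calprotectin subunit, had 30.2, 30.4 and 22.8 CPM in upper against 153, 175, 71.9 and 83.8 CPM in lower libraries of 2153, and 3.74, 4.33 and 3.45 CPM against 6.67 to 38.6 CPM (median 12.5) in 2208. In 2250 it had 1.43 to 3.03 CPM (median 2.58) in upper against 8.30, 4.61, 6.93, 6.25 and 0.848 CPM in lower libraries, so that CP-2827 alone lay below the upper ones. It fell by 1.78 over the models (SE 0.31, adjusted p = 0.000267), and its partner S100a8 fell by 1.54 (SE 0.26, adjusted p = 0.000222). In bulk RNA, fewer cells of a type and less RNA per cell cannot be told apart.

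Others in that list act in matrix turnover and glucose uptake. Mmp12, the elastase of macrophages, fell by 2.09 (SE 0.46, adjusted p = 0.00224), with 2.85, 3.07 and 4.30 CPM in upper against 66.4, 14.9, 8.34 and 17.6 CPM in lower libraries of 2153. Cemip, which takes part in breaking down hyaluronan, fell by 1.43 (SE 0.28, adjusted p = 0.000777), and Pappa, a protease of insulin-like growth factor binding proteins, fell by 1.56 (SE 0.27, adjusted p = 0.000303). Slc2a3, the glucose transporter GLUT3, fell by 1.36 over the models (SE 0.26, adjusted p = 0.000656), but its shift differed among them (interaction adjusted p = 0.0178): 2.30, 1.94 and 1.81 CPM in upper stood against 20.7, 20.4, 8.02 and 6.15 CPM in lower libraries of 2153. Ntrk2, a neurotrophin receptor, fell by 1.19 (SE 0.22, adjusted p = 0.000438), and Slfn5, a member of the Schlafen family, fell by 1.19 (SE 0.26, adjusted p = 0.00178). For S100a8, S100a9, Mmp12, Pappa, Cemip, Slc2a3, Ntrk2 and Slfn5 the shift within 2250 did not pass at an adjusted p under 0.05, and that of Cemip did not pass within 2153 either.

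The shared count moved with the choice of libraries and of the dividing number. It was 24, 11 and 30 without CP-4073, CP-4074 and CP-4075 of 2153, 113, 35 and 35 without CP-4046, CP-4047 and CP-4048 of 2208, and in 2250 161 without CP-3056, 86 without CP-3981, 26 and 29 without CP-3537 and CP-3539, and 28, 19, 23 and 23 without CP-2203, CP-2620, CP-2621 and CP-2622. Under DESeq2's size factors, 56 of the 56 genes kept their direction in each model and stayed called with model as covariate. The same held under the authors' own scaling and after correction for GC content and transcript length. This rule is looser than the one that defined the shared genes, because it asks for no call within each model. The genes were also picked from the same counts, so this outcome was largely set in advance and does not show a stable set. Under the full rule the shared count fell without a filter and by limma on the authors' table, and rose after the correction. Those counts are given with the processing below.

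The shared genes had properties that also moved with the sides across all genes. The 51 higher ones had a median GC content of 52.6% and a median transcript length of 1950 nt, against 49.7% and 2920 nt for all tested genes. Over the models the median log2 shift was 0.15 in the quintile of genes with the highest GC content, -0.13 in the quintile with the lowest, and -0.16 in the quintile with the longest transcripts. Among those longest genes, 3.21% of genes were higher and 19.1% lower, and 0 of the shared genes with a known length lay there. The part of GC content and length in the shared shifts was not tested beyond the correction above.

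Gene lists chosen by cell type or process placed these genes in wider groups. Of 30 nuclear genes of oxidative phosphorylation, 28 were higher in upper libraries and 0 lower with model as covariate, against 12.9% of all genes higher. The list had 27 higher in 2208 (14.3% of all genes were higher there), 11 in 2250 (3.83%) and 6 in 2153 (4.01%), with median log2 shifts of 0.70, 0.28 and 0.27 in that order. In 2208 the examples were Ndufa2, a complex I subunit, with a rise of 1.34 ± 0.19 (adjusted p = 3.3e-05), and Cox5a of cytochrome c oxidase with 0.90 ± 0.19 (adjusted p = 0.0014). Cox4i1 rose by 0.65 ± 0.13 in 2250 (adjusted p = 0.0074), and Cycs, cytochrome c, by 0.76 ± 0.15 in 2153 (adjusted p = 0.0024). Without model 2208 the count over the models was 14. Without CP-4047 the count within 2208 was 13. That within 2250 was 6 without CP-3537, 6 by limma on the authors' table and 5 with the CP-26xx libraries set against those at 3900 or above. Within 2153 it was 2 without CP-1977, 3 without CP-2612 and 3, 2 and 2 without CP-4073, CP-4074 and CP-4075.

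The mean log2 level of the oxidative phosphorylation list was 6.46 to 6.62 in upper against 6.12 to 6.28 in lower libraries of 2153, and 6.81 to 7.44 against 6.37 to 6.73 in 2208, without overlap in either. In 2250 it was 6.48 to 7.02 against 6.24 to 6.65, with overlap. In 2208 CP-4046 had the lowest of the 3 upper levels.

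Of 30 cytosolic ribosomal protein genes, 16 were higher with model as covariate (12.9% of all genes), 13 within 2208 (14.3%), 5 within 2250 (3.83%) and 1, Rps2, within 2153, where the share was no larger than that of all genes (4.01%). After correction for GC content and transcript length the count within 2208 was 2, with a list median of 0.14 against 0.41 before, and that over the models was 10. With the CP-26xx libraries set against those at 3900 or above, these counts were 2 and 5. Over the models it was 5 without model 2208 and 8 without model 2250. Rplp2, a stalk protein of the large subunit, rose by 0.99 ± 0.22 in 2208 (adjusted p = 0.0018), and Rpl8 rose by 0.73 ± 0.16 in 2250 (adjusted p = 0.012). The count in 2208 fell to 1 without CP-4047 and 2 without CP-4048, and that over the models to 9 without CP-4047. In 2250 it was 12 without CP-3056, 8 without CP-4046 of 2208, which bears on 2250 through the shared spread, and 3 without CP-3537, CP-3539, CP-2203, CP-2620 or CP-2622, each left out alone.

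Of 20 genes of DNA replication, 8 were higher in 2153 (4.01% of all genes) and 12 in 2208 (14.3%). None was called in 2250, where the median log2 shift was -0.03. With depth as a covariate the count was 5 in each of 2153 and 2208. It was 15 in 2153 after correction for GC content and length, and 7 in 2208 with the CP-26xx libraries against those at 3900 or above. Gins1, part of the replicative helicase, rose by 1.10 ± 0.21 in 2153 (adjusted p = 0.0021) and by 0.96 ± 0.18 in 2208 (adjusted p = 0.00047), and Mcm5, another helicase subunit, by 0.75 ± 0.17 and 0.44 ± 0.14. Of 24 genes of mitosis and proliferation, 6 were higher in 2153 and 9 in 2208, against the same 4.01% and 14.3% of all genes, among them Birc5 (0.75 ± 0.17 and 1.01 ± 0.14) and Plk1 (0.81 ± 0.17 and 0.69 ± 0.15). The 2153 replication count was 5 without CP-4074, and the 2208 count was 6 and 7 without CP-4047 and CP-4048.

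Of 18 neutrophil genes, 13 were lower in 2153 (against 6.02% of all genes) and 10 in 2208 (against 11.6%), and the list median was -2.09 and -1.30. Ngp, a granule protein, fell by 5.08 in 2153 (SE 1.16, adjusted p = 0.0068) and by 4.20 in 2208 (SE 1.12, adjusted p = 0.0079), and Ly6g, the antigen that defines mouse neutrophils, fell by 3.56 in 2153 and fell by 4.45 in 2208. In 2250 the list median was -0.61, and 14 of the 18 genes had a negative shift, but 0 were called lower. The single call in 2250 was Lcn2, lipocalin 2, which mammary epithelium also makes. It rose by 0.65 ± 0.14 (adjusted p = 0.011) where it fell by 0.60 in 2153 and by 0.58 in 2208. The 2153 count was 4, 5 and 4 without CP-4073, CP-4074 and CP-4075, and the 2208 count 6 without CP-4047. With depth as a covariate the counts were 8 in 2153 and 6 in 2208, and in counts thinned to the smallest depth the 2153 count was 8.

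Of 24 hypoxia and glycolysis genes, 9 were lower in 2153 (6.02% of all genes) and 17 in 2208 (11.6%), with 1 higher there, Pfkfb4, and 0 were called in 2250, where the median was 0.21. Car9, a carbonic anhydrase induced by low oxygen, fell by 2.29 in 2153 (SE 0.42, adjusted p = 0.0015) and by 1.63 in 2208 (SE 0.38, adjusted p = 0.0027). Adm, adrenomedullin, fell by 2.07 in 2153 and fell by 2.55 in 2208, and Vegfa, the vascular growth factor, fell by 1.64 in 2208 (SE 0.33, adjusted p = 0.00094). The mean log2 level of the list was 5.74 to 6.04 in upper against 6.63 to 7.35 in lower libraries of 2208, and 6.27 to 6.5 against 6.54 to 7.56 in 2153. The 2153 count was 4 and 3 without CP-4073 and CP-4074, and 5 with the CP-26xx libraries against those at 3900 or above.

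All 6 measured red blood cell genes, hemoglobins among them, were lower in upper libraries with model as covariate, against 10.2% of all genes, with Hba-a2 falling by 1.57 (SE 0.40, adjusted p = 0.007). The count was 3 when CP-4073, CP-4046, CP-4047 or CP-4048 was left out, 2 without model 2153 and 0 without model 2208. It was 3 with depth as a covariate and 2 with the CP-26xx libraries against those at 3900 or above. Summed, the list had 117 to 374 CPM in upper against 247 to 1170 CPM in lower libraries of 2153, 51.2 to 75.6 against 63.4 to 638 CPM in 2208, and 23.8 to 231 against 33.4 to 262 CPM in 2250, with overlap in each. The part of blood content in the other shifts was not tested.

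**Figure D3:**
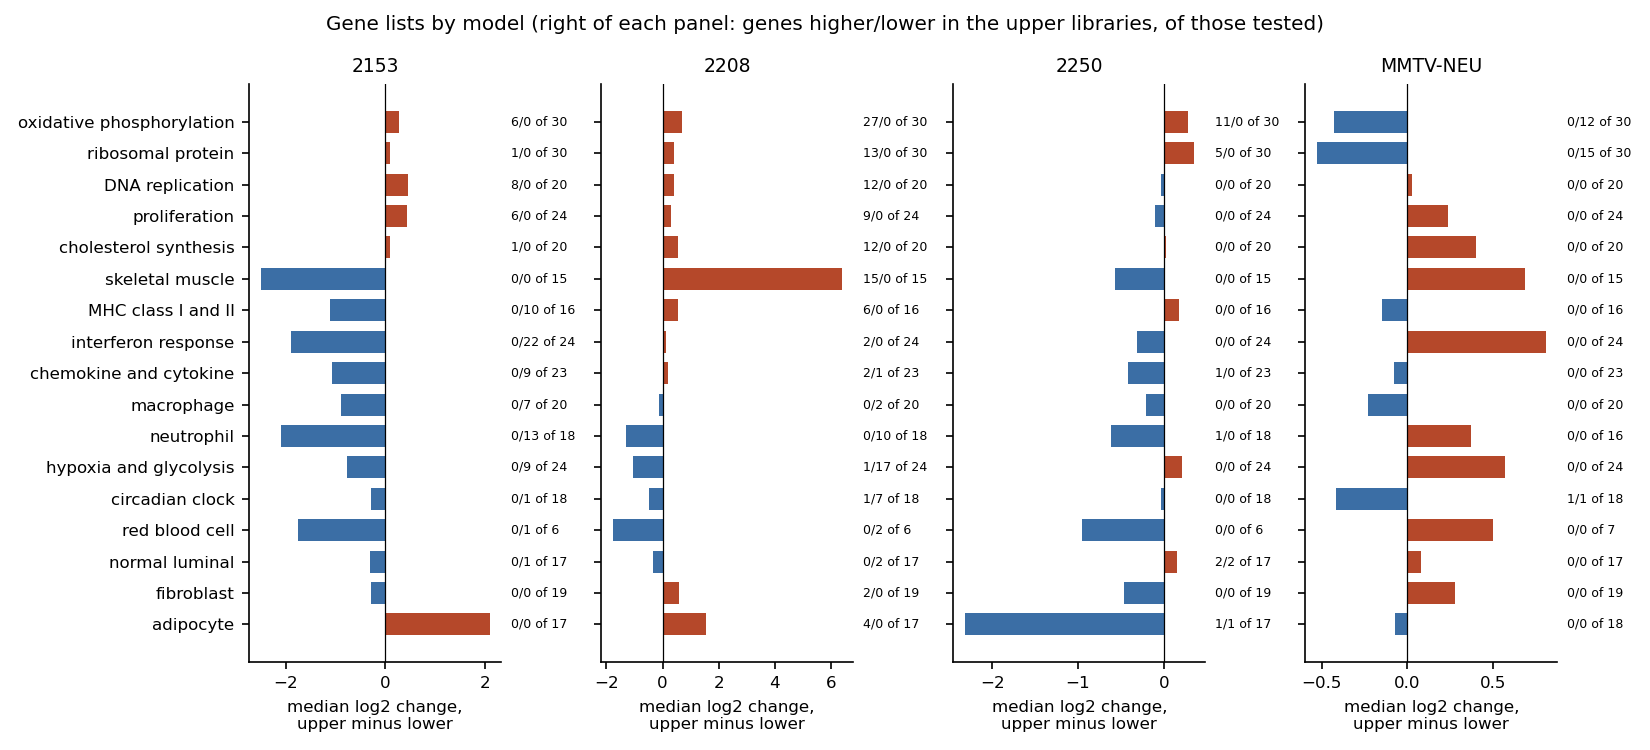
Median log2 change, upper minus lower (x axis, whose range differs between panels), of 17 gene lists in 2153, 2208, 2250 and MMTV-NEU. Text at the right of each panel gives the genes called higher and lower of those tested: oxidative phosphorylation was on the higher side in 2153, 2208 and 2250 and on the lower side in MMTV-NEU, and the interferon list had 22 of 24 genes lower in 2153.

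Shifts of 2153 alone were those called in 2153, called as different from the mean shift of 2208 and 2250, and not reaching an unadjusted p of 0.05 in either. There were 213 (1.11% of genes), 43 higher and 170 lower, and the lower ones were led by interferon-induced genes. Cxcl9, a chemokine that draws T cells, had 0.797, 0.551 and 0.691 CPM in upper against 2.12, 91.9, 16.2 and 9.59 CPM in lower libraries of 2153. In 2208 it had 41.3, 14.1 and 23.7 CPM in upper against 6.71 to 18.6 CPM (median 11.2) in lower libraries, and in 2250 it had 1.64 to 30.7 CPM (median 13.2) against 14.5, 30.6, 8.07, 19.4 and 33.6 CPM. The 3 upper 2153 libraries lay close together below all others, and within the lower ones CP-2611 stood far above the rest. The shift was -5.46 ± 1.01 in 2153 (adjusted p = 0.00168), 1.13 ± 0.66 in 2208 and -0.47 ± 0.62 in 2250, and without CP-2611 it was -3.74 in 2153.

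Gbp4, a guanylate-binding protein, had 0.965, 1.26 and 1.02 CPM in upper against 5.96, 117, 12.7 and 9.30 CPM in lower libraries of 2153 (-5.06 ± 0.86, adjusted p = 0.000961), and its shift was -0.03 ± 0.61 in 2208 and -0.55 ± 0.55 in 2250. Without CP-2611 the 2153 shift was -3.07 for Gbp4 and -1.91 for Cxcl11, and both stayed called. Iigp1 fell by 3.55 (SE 0.63, adjusted p = 0.00128), Cxcl11 fell by 3.42 (SE 0.71, adjusted p = 0.00362), and F10, coagulation factor X, fell by 3.58 (SE 0.70, adjusted p = 0.00239). Tgtp2, an interferon-induced GTPase with a near-identical neighbour, Tgtp1, so that reads between them are uncertain, had 0.539, 0.694 and 0.808 CPM in upper against 2.96, 28.1, 7.67 and 8.58 CPM in lower libraries (-4.11 ± 0.68, adjusted p = 0.000817).

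Of 24 interferon response genes, 22 were lower in 2153 (6.02% of all genes) and 0 higher, against 2 higher in 2208, a smaller share than the 14.3% of all genes, and no call in 2250, and the list medians were -1.89, 0.13 and -0.31. Irf9, which carries the interferon signal to the nucleus, fell by 1.02 (SE 0.17, adjusted p = 0.000913). Antiviral effectors fell with it, such as Oas3 with -2.55 ± 0.48 and Mx1 with -2.29 ± 0.47. The mean log2 level of the list was 2.71 to 2.93 in upper against 4.37 to 5.0 in lower libraries of 2153, 5.12 to 6.05 against 4.57 to 6.2 in 2208, and 5.50 to 6.43 against 5.46 to 7.19 in 2250. Only in 2153 were the sides apart, and the count there stayed between 17 and 23 when any of the 29 libraries was left out.

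The promoters of 3 interferon-induced genes that fell in 2153 are printed to show the sequence through which the pathway is known to act. They are RefSeq sequences of GRCm38.p6, from 250 bases before to 50 after the start of the gene, read 5′ to 3′ on the gene's strand. Capitals mark an interferon-stimulated response element, searched as GAAA, any 2 bases and GAAA on both strands, and in Tgtp2 also a gamma-activated site, searched as TTCNNNGAA, which reads the same on both strands. The Tgtp2 window is chr11:49064163-49064462 on the minus strand, that of Gbp2 chr3:142620413-142620712 on the plus strand, and that of Cxcl10 chr5:92348840-92349139 on the minus strand.
Tgtp2: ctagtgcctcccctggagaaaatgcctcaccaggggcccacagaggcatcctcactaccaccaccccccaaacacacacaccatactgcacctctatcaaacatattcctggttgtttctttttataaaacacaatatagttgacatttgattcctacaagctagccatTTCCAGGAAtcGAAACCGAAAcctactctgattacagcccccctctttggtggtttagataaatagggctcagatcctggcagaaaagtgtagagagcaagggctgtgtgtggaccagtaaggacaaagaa
Gbp2: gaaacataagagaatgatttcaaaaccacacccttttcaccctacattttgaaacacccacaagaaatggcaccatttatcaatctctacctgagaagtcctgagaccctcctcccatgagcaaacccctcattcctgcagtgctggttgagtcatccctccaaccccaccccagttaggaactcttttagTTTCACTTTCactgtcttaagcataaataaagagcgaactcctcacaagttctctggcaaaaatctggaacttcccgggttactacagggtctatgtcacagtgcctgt
Cxcl10: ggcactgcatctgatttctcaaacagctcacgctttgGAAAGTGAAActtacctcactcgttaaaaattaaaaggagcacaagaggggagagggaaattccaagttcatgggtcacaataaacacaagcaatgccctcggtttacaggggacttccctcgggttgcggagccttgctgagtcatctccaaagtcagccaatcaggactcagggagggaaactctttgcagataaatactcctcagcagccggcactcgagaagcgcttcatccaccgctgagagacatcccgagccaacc

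Gbp2 fell by 2.96 in 2153 (SE 0.51, adjusted p = 0.0011), and Cxcl10, a second T cell chemokine, fell by 3.4 (SE 0.67, adjusted p = 0.00239). Cxcl10 had 1.68, 1.83 and 1.97 CPM in upper against 5.34, 52.5, 10.2 and 9.24 CPM in lower libraries of 2153. The interferon element was found in 21 of the 121 promoters matched among the 170 genes lower in 2153 alone, 17.4%, and in 1 of 37 matched among the 43 higher ones, 2.70%. It was in 3.07% of the 12425 promoters matched among all tested genes and in 3.49% of all 27025 promoters. The gamma-activated site was in 13 of the 121, 10.7%, against 7.07% of those of tested genes and 8.47% of all. These matches are descriptions of letters in a window and do not show binding.

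Of 16 genes of MHC class I and II and peptide loading, 10 were lower in 2153 (6.02% of all genes) and 6 were higher in 2208 (14.3%). Psmb9, an immunoproteasome subunit, had 8.40, 8.74 and 6.81 CPM in upper against 16.9, 43.3, 20.7 and 16.7 CPM in lower libraries of 2153 (-1.61 ± 0.36, adjusted p = 0.00552), and 24.1, 40.2 and 59.4 CPM in upper against 10.1 to 21.8 CPM (median 15.6) in lower libraries of 2208 (1.35 ± 0.29, adjusted p = 0.00142). The sides did not overlap in either model, and the directions were opposite. The 2153 count was 6 without CP-2611 and 5, 6 and 3 without CP-4073, CP-4074 and CP-4075, and the 2208 count was 3 and 2 without CP-4047 and CP-4048. The 2208 count was also 3 with depth as a covariate and 3 after correction for GC content and length.

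Of 20 macrophage markers, 7 were lower in 2153, where 6.02% of all genes were lower, among them Itgam, which fell by 1.58 (SE 0.29, adjusted p = 0.0016), and the count was 4 without CP-4073, 11 by DESeq2 and 11 with the CP-26xx libraries against those at 3900 or above. Summed, the list had 678 to 971 CPM in upper against 877 to 1780 CPM in lower libraries of 2153, which overlapped. Of 19 T cell markers 1 was higher and 0 lower in 2153, against 4.01% and 6.02% of all genes. Their median log2 shift was -1.36, while the summed level went the other way, at 32.1 to 35.8 CPM in upper against 15.9 to 33.7 CPM in lower libraries. Of 23 chemokines and cytokines 9 were lower, against the same 6.02%. The count was 5 with depth as a covariate, 5 by limma on the authors' table, 4 without CP-2611, and 2, 3 and 3 without CP-4073, CP-4074 and CP-4075. The part of macrophage content in the interferon shift was not tested.

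The genes higher in 2153 alone had modest shifts. Gclc, the catalytic subunit of the enzyme that limits glutathione synthesis, had 72.6, 79.7 and 74.1 CPM in upper against 47.4, 39.3, 33.1 and 43.4 CPM in lower libraries (0.89 ± 0.12, adjusted p = 0.000162). Its shift was -0.20 ± 0.11 in 2208 and 0.04 ± 0.10 in 2250. Dlx4, a homeobox factor, rose by 1.22 ± 0.22 (adjusted p = 0.0011), and Sox12, a transcription factor of the Sox family, by 1.02 ± 0.18 (adjusted p = 0.00129). Acot1, an acyl-CoA thioesterase whose relatives share sequence, rose by 1.24 ± 0.28, Dusp9, a MAP kinase phosphatase, by 1.09 ± 0.24, and Ahcy, which breaks down S-adenosylhomocysteine, by 0.78 ± 0.13. The count of 213 rested on single libraries: it was 44, 31 and 6 without CP-4073, CP-4074 and CP-4075, 117 without CP-2611, 125 without CP-4048 of 2208 and 342 without CP-3981 of 2250.

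**Figure D4:**
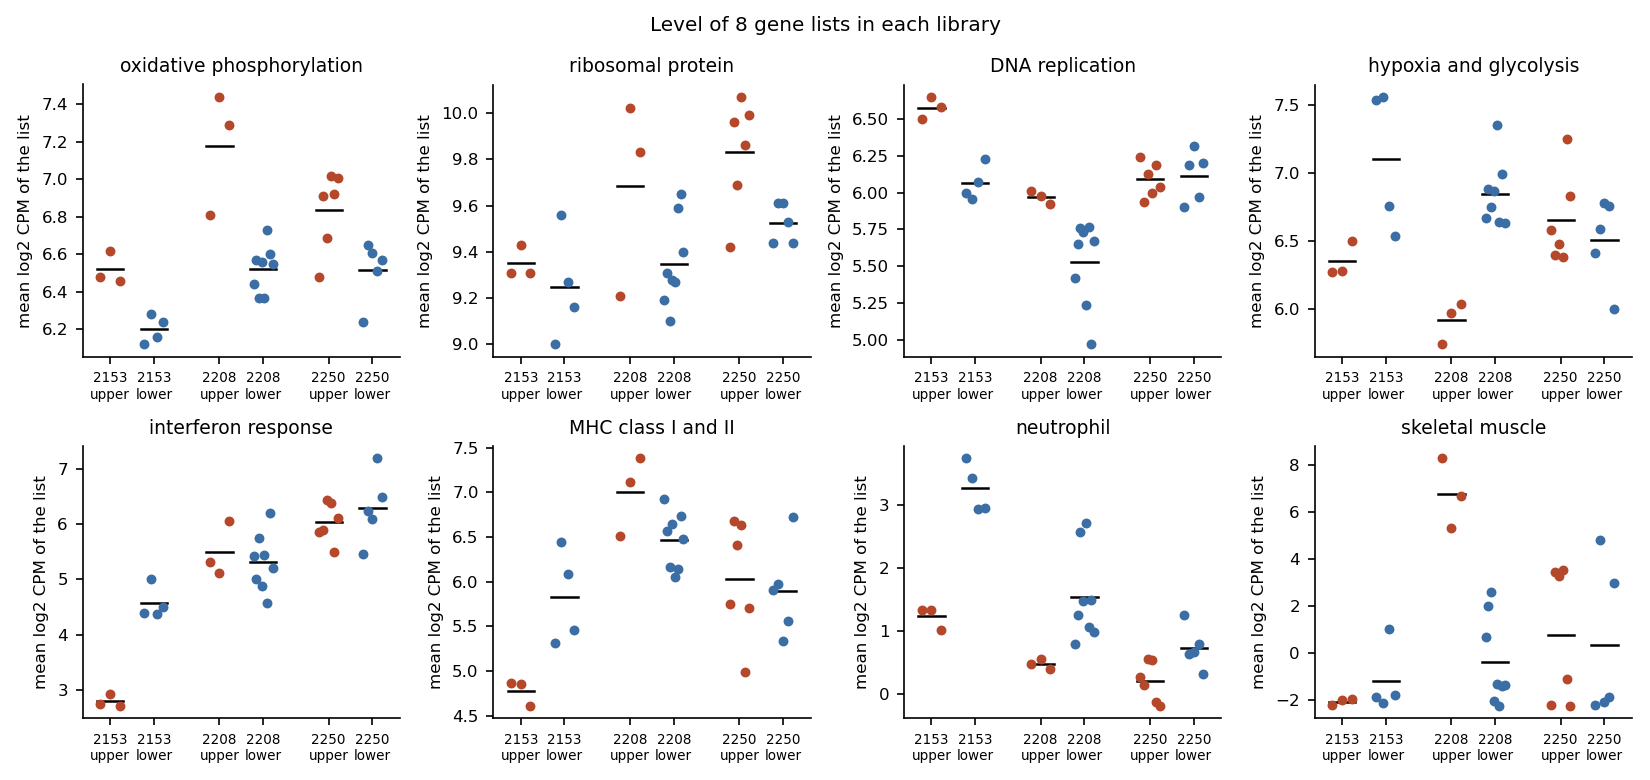
Mean log2 CPM (y axis) of 8 gene lists in each library, with upper libraries (red) left of lower ones (blue) within each model and bars at group means. The interferon list sits between 2.71 and 2.93 in the upper 2153 libraries, below every other library, and the muscle list between 5.34 and 8.30 in the upper 2208 libraries.

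In 2208, 912 genes (4.75%) were shifted alone, 555 higher (2.89%) and 357 lower (1.86%), and the higher ones were led by genes of skeletal muscle. Ckm, muscle creatine kinase, had 817, 92.6 and 307 CPM in upper against 0.0519 to 19.2 CPM (median 0.197) in lower libraries of 2208. Myh4, a fast myosin heavy chain, had 1440, 98.4 and 366 CPM in upper against 0 to 24.1 CPM (median 0.0488) in lower ones. In both, CP-4046 was the highest and CP-4047 the lowest of the upper libraries, and no lower library reached them. The shift was 6.89 ± 1.55 for Ckm (adjusted p = 0.00256) and 7.0 ± 1.77 for Myh4 (adjusted p = 0.00585), and the other muscle genes named by size were Mylk4 (8.61 ± 0.70), Ckmt2 (8.97 ± 1.37), Apobec2 (7.75 ± 1.2) and Tnnc2, which overlaps Ube2c (7.01 ± 1.51).

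All 15 skeletal muscle markers were higher in 2208, against 14.3% of all genes, and none was called in 2153 or 2250. Summed, the list had 853 to 6920 CPM in upper against 8.27 to 144 CPM in lower libraries of 2208, 14.9 to 242 against 12.2 to 668 CPM in 2250, and 13.5 to 15.2 against 13.3 to 47.8 CPM in 2153. The count of 15 was the same when any of the 29 libraries was left out. Muscle is rich in mitochondria, and its part in the oxidative phosphorylation shift of 2208 was not tested.

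Other lists moved in 2208. Of 20 genes of cholesterol synthesis 12 were higher, against 14.3% of all genes, such as Idi1 (0.97 ± 0.22, adjusted p = 0.0027) and Fdft1, squalene synthase (0.79 ± 0.14, adjusted p = 0.0002). The count was 4 with depth as a covariate. Of 18 circadian clock genes 7 were lower, against 11.6% of all genes, and 1 higher: Arntl, the core activator of the clock, fell by 0.92 (SE 0.22, adjusted p = 0.0034), and Per3, one of its repressors, rose by 0.48 ± 0.16 (adjusted p = 0.028). Time of day at collection is not given. Without CP-4047 the cholesterol count was 5 and the clock count 4, and without CP-4048 the clock count was 4.

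Among genes lower in 2208 alone, Sntb1, a syntrophin of the dystrophin complex, had 30.6, 9.0 and 13.8 CPM in upper against 51 to 73.3 CPM (median 64.0) in lower libraries. It fell by 1.80 (SE 0.28, adjusted p = 6.5e-05), against shifts of -0.10 ± 0.28 in 2153 and -0.27 ± 0.22 in 2250. Nlrp10, of the NLR family, fell by 2.49 (SE 0.38, adjusted p = 6.69e-05), Itga2, a collagen receptor subunit, fell by 2.34 (SE 0.53, adjusted p = 0.00229), and Acpp, a phosphatase, fell by 1.81 (SE 0.37, adjusted p = 0.00103). Dsg3, a desmosomal cadherin, fell by 1.88 (SE 0.52, adjusted p = 0.0094) and Dmp1, a phosphoprotein of mineralized matrix, fell by 1.87 (SE 0.50, adjusted p = 0.00764). Dsg3 lost its call without CP-4047 (adjusted p = 0.0968) or CP-4048 (adjusted p = 0.0658), and Dmp1 without CP-4047 (adjusted p = 0.0717). The count of 912 was 1424 without CP-4046, 358 without CP-4047 and 345 without CP-4048.

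Along the chromosomes, a running median over 51 neighbouring genes reached -0.81 in 2208 on chromosome 18, 36766528 to 37841873, where 41 of the 51 genes are protocadherins, a clustered family of cell adhesion genes. In 2153 and 2250 the median over that window was -0.40 and -0.25. On chromosome 17 the running median in 2208 reached 0.51 between 34931253 and 35531015, with 18 of 51 genes higher (14.3% of all genes) and 0 lower. Of the 51 genes, 8 carry an H2- symbol, and the window's median was -0.18 in 2153 and 0.17 in 2250. A separate stretch of chromosome 17 reached 0.45 in 2208 between 24697949 and 25964784. There 23 of 51 genes were higher, against the same 14.3%, 4 were lower and 0 carry an H2- symbol. Other chromosomes also held windows past 0.4 in size, given here by their largest value. In 2153 they were chromosomes 7 (-0.59), 19 (-0.48), 6 (-0.45), 11 (-0.44) and 18 (-0.40). In 2208 they were chromosomes 5 (-0.50), 1 (-0.48), 6 (-0.46), 8 (-0.44) and 7 (0.40).

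Model 2250 had the fewest shifts of its own, 138 (0.718%), with 94 (0.489%) higher and 44 (0.229%) lower. S100a1, a calcium-binding protein, had 27.7 to 51.8 CPM (median 47.2) in upper against 18.6, 17.2, 18.2, 22.7 and 27.4 CPM in lower libraries of 2250, without overlap. It rose by 1.10 ± 0.21 (adjusted p = 0.00513), against 0.37 ± 0.25 in 2153 and -0.25 ± 0.23 in 2208. Chmp2a, of the ESCRT-III membrane scission machinery, had 117 to 159 CPM (median 133) in upper against 75.4, 72.6, 72.9, 76.1 and 90.2 CPM in lower libraries, the clearest separation of the genes named in 2250 (0.81 ± 0.11, adjusted p = 0.000318). Tmem106c rose by 0.83 ± 0.15, Fam122a by 0.75 ± 0.15, Anxa9, an annexin, by 0.75 ± 0.17 and Pold4, a small subunit of DNA polymerase delta, by 0.78 ± 0.19 (adjusted p = 0.0209). These genes stand alone among the 3 models and not in the series: between library numbers of MMTV-NEU, S100a1 (0.82, adjusted p = 0.0201), Chmp2a (0.34, adjusted p = 0.0489) and Fam122a (0.84, adjusted p = 0.0447) were higher too. In 2224, which has 1 lower library, S100a1 (1.79, adjusted p = 0.0294) and Chmp2a (0.88, adjusted p = 0.027) were higher.

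In the lower direction, 2 genes met the rule for naming in 2250. Rbfox2, a splicing regulator, had 67.5 to 81.1 CPM (median 74.8) in upper against 86.2, 152, 134, 177 and 100 CPM in lower libraries, and it fell by 0.80 (SE 0.12, adjusted p = 0.00146). Zfp868, a zinc finger gene, fell by 0.48 (SE 0.10, adjusted p = 0.00951). Pold4 lost its call without CP-2620 (adjusted p = 0.0571), CP-3537 (adjusted p = 0.0714) or CP-3539 (adjusted p = 0.068). The count of 138 was 271 without CP-3056, 70 without CP-3537, 79 without CP-3539, 66 without CP-2620, 88 without CP-2621 and 84 without CP-4075 of 2153.

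On chromosome 15, 10.1% of 691 tested genes were higher in 2250 and 3.33% lower, against 3.83% and 1.30% of all genes, and the median log2 shift was 0.14. The running median reached 0.48 between 73723145 and 76330677, with 10 of 51 genes higher, against the same 3.83%, and 0 lower. In that window the median was -0.11 in 2153 and 0.15 in 2208. The plot along chromosome 15 shows the peak of the 2250 line above 0.4. The line just passed that limit again, at 0.40, in an overlapping window from 75642129 to 76694919. There 13 of 51 genes were higher, against the same 3.83%, and 0 lower.

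**Figure D5:**
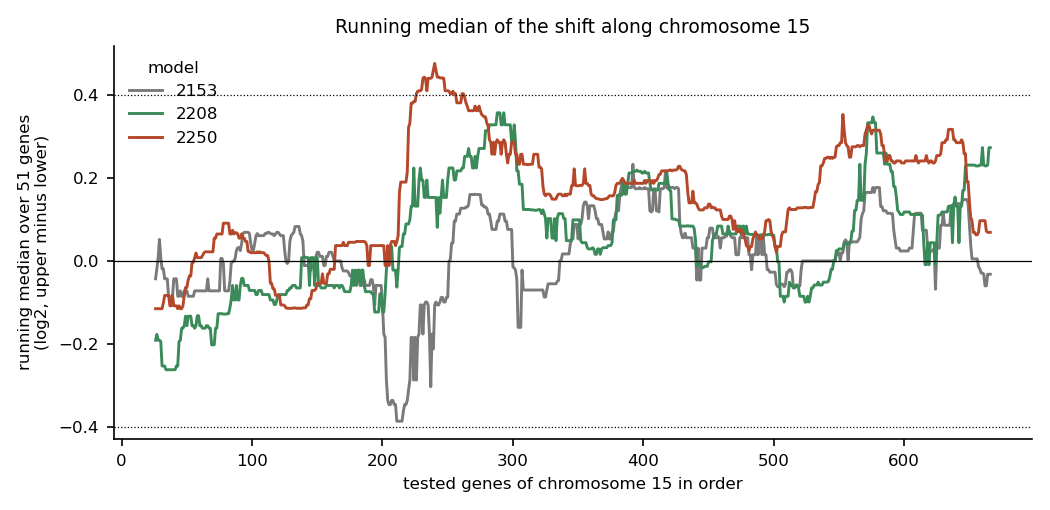
Running median over 51 genes of the log2 change, upper minus lower (y axis), along the tested genes of chromosome 15 in order (x axis) for 2153 (grey), 2208 (green) and 2250 (red), with dotted lines at 0.4 and -0.4. The 2250 line reaches 0.48, and the lines of 2153 and 2208 stay between the dotted lines.

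Some pseudogenes, singled out after their values were seen, were listed at 0 in part of the libraries. Zxda, on the X chromosome, was listed at 0 in the 3 upper libraries of 2208 and in CP-1976, and at 1.43 to 12 CPM in the other 7 lower ones. It was also listed at 0 in CP-1977 of 2153, against 6.19 to 7.89 CPM in the other 3 lower libraries and 4.91 to 5.45 CPM in the upper ones. Rpl30-ps9 was listed at 0 in the same 3 upper libraries of 2208, with a median of 30.1 CPM in the lower ones.

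Whether the shared genes shift between numbers elsewhere could be examined in MMTV-NEU, tumours in FVB mice with 5 upper (CP-3051 to CP-3614) and 3 lower (CP-1289 to CP-1291) libraries, and in 2224, in BALB/c mice with 3 upper and 1 lower library. In MMTV-NEU 364 genes (1.76%) rose and 727 (3.52%) fell, together 5.29% of 20642 tested. Here the upper libraries were the shallower, with 17.2 to 47.8 Mcounts in upper against 70.2 to 89.7 Mcounts in lower libraries. Of the 51 genes shared in the higher direction, 35 had the same sign in MMTV-NEU, 6 of them called, with a median of 0.11, where 49.3% of all genes had that sign. Stra13 (0.74, adjusted p = 0.00987), Tuba1c (1.0, adjusted p = 0.0321) and Sla2 (1.60, adjusted p = 0.0361) were called, while Lsm4 had 0.02 and Ndufs6 0.31. Of the 5 shared lower genes 5 had the same sign and none was called.

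In MMTV-NEU, of 30 oxidative phosphorylation genes 12 were lower (3.52% of all genes) and 0 higher, with a median of -0.43, and of 30 ribosomal protein genes 15 were lower, with a median of -0.53. The neutrophil, hypoxia and interferon lists had no call there, with medians of 0.37, 0.57 and 0.81. In 2224, where the 1 lower library is assumed to vary like the MMTV-NEU groups, 48 of the 51 genes had the same sign, as did 51.2% of all genes, and 2 were called higher, where 0.518% of all genes were called higher and 0.770% in either direction. The MMTV-NEU total of 1091 was 331, 417 and 385 without CP-1289, CP-1290 and CP-1291, 688 without CP-3613, and 509 and 699 without CP-2168 and CP-3756 of 2224.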

How the data were processed

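Tumour RNA was extracted with RNeasy Mini and sequenced from TruSeq mRNA libraries, per the labels' protocols. The authors deposited estimated counts per gene, not normalised, and a second table of normalised counts (unit: signal) scaled by the authors. STAR, SAMtools, Picard, Salmon and mm10 appear in the submitters' processing notes without versions, and strand and annotation are not given in the sources used here. Estimated counts were rounded to whole numbers. Of 47480 genes, 19220 passed edgeR's filter (minimum count 10, minimum total 15) over 29 libraries. Library sizes were scaled by TMM, and edgeR 4.0.16 in R 4.3.3 fitted quasi-likelihood models, one with model as covariate (25 residual degrees of freedom) and one with 6 group means (23). Benjamini-Hochberg adjusted p under 0.05 was called. MMTV-NEU and 2224 were fitted apart.

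CPM values use TMM-scaled sizes, and list levels are mean log2 CPM with a prior count of 2. Genes were named by size among shared or single-model calls with at least 5 CPM on the higher side (10 each way, 6 each way per model, without overlap for single models). Where shared genes were fewer than 10, genes called with model as covariate, with 1 direction and an unadjusted p under 0.05 in each model, filled the list. Pseudogenes and predicted genes were skipped unless said to be singled out. The groups, gene lists and members were chosen with earlier results of these data known. The library of 2208 without a number was left out. Library properties were compared by exact permutation within models, adjusted over 10 properties. Libraries of a group differed beyond sampling noise in all 65 pairs compared (chi-square per degree of freedom 16.8 to 402). GC content, length and overlaps came from GENCODE M21, which held 96.4% of the tested genes, and promoters from RefSeq. Alternatives were DESeq2 1.42.0 and its size factors, limma 3.58.1 on the authors' table, no filter, depth as covariate, thinned counts, other number limits and single libraries or models left out. A GC and length correction, leaving out libraries CP-1976 and CP-1977 together, and mean GC and length as properties were chosen after seeing the data. The scripts were tested on simulated data. Some genes of the lists and calls are not reported here.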

Additional observations from a re-analysis of the deposited data

Results flagged for a closer look

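Shifts that differed between models came to 2528 genes by the interaction test, with 213 shifted in 2153 alone, 912 in 2208 alone and 138 in 2250 alone. By the same test the shift of Slc2a3 differed among models (adjusted p = 0.0178), as did those of Rpl30-ps9 (adjusted p = 0.0268) and Zxda (adjusted p = 0.005).

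Single libraries stood far from the rest of their group in 27 of 336 group tests, and chance gives about 1 in 20. Library CP-1977 of 2153 had the lowest Guk1 (14.1 CPM, others 21.5 to 22.1), the lowest Chmp2a (55.7 CPM), Zxda at 0.0 CPM, the highest share of counts in its 10 leading genes (6.61%) and the lowest share of whole-number estimates (83.8%). Library CP-1976 of 2208 had Zxda at 0.0 CPM and the lowest Anxa9 (4.57 CPM).

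Muscle genes were highest in CP-2612 of the lower 2153 libraries, with Ckm at 0.586, Tnnc2 at 0.958 and Ckmt2 at 0.071 CPM and a list level of 1.02. Ckmt2 reached 0.156 CPM in CP-2028 of 2208. Among upper 2250 libraries, CP-3981 had the lowest Cxcl9 (1.64 CPM) and Tgtp2 (1.45 CPM) and the highest Gm7985 (0.0883 CPM) and hemoglobin share (0.0189%). In the same group CP-3056 had the lowest Psmd13 (60 CPM), CP-3538 the lowest S100a1 (27.7 CPM) and CP-3982 the lowest Rpl30-ps9 (4.64 CPM).

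Among lower 2250 libraries, CP-2827 had the lowest S100a9 (0.848 CPM), the highest Chmp2a (90.2 CPM) and the lowest mean GC (49.5%), CP-2620 the lowest Sla2 (2.12 CPM) and CP-2203 the highest Itga2 (6.29 CPM). Zfp655 was lowest in CP-2613 of 2153 (50.5 CPM) and in CP-2629 of 2208 (43.0 CPM), and Acot1 was highest in CP-2630 of 2208 (56.7 CPM).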

How the results depend on the processing

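No paired analysis was possible because the replicate numbers only order the libraries within a group and pair none of them. Under DESeq2's size factors every count of calls stayed within 1.5 times. Without a filter, 2250 had 438 calls, the shared genes were 27, and 120 and 73 genes were shifted in 2153 and 2250 alone. DESeq2 called 1777 in 2250, 3803 by interaction, 144 shared, and 466 and 246 in 2153 and 2250 alone. limma on the authors' table gave 4188 by interaction, 31 shared, and 1386 and 313 in 2208 and 2250 alone. It split 2208 into 4377 higher and 1185 lower, 2250 into 199 and 1034, and 2153 into 979 and 801, and moved the median of all genes to 0.16 in 2208 and -0.18 in 2250. Without a filter 2153 split into 964 and 722. Depth as a covariate gave 93 shared and 41 in 2250 alone. It moved 10 of 26 list counts by over 1.5 times, each to a lower count: those within a model stand beside their lists, and over the models DNA replication had 5 higher, hypoxia and glycolysis 5 lower and red blood cell genes 3 lower. A limit of 3500 gave 2501 in 2250, 162 shared and 277 in 2250 alone. Setting only the CP-26xx libraries against those at 3900 or above gave 2718 with model as covariate, 3377 in 2153, 4442 by interaction and 312 in 2250 alone. Without model 2208, 1487 were called with model as covariate. Correction for GC and length gave 2910 in 2153 (1791 higher, 1119 lower), 117 shared and 361 in 2153 alone. The causes were not tested.

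Leaving out one library at a time gave 721 to 2352 calls in 2153, 1808 to 5603 in 2208, 349 to 2246 in 2250, 1417 to 3324 by interaction, 11 to 161 shared, 6 to 342, 345 to 1424 and 66 to 271 in 2153, 2208 and 2250 alone, and 331 to 1196 in MMTV-NEU. The share of counts from mitochondria-like pseudogenes in the nuclear genome differed by -0.0414 to 0.126 percentage points. The hemoglobin share differed by -0.0283 to -0.0184 and mean GC by 0.233 to 0.37. Of 60 named genes, Anxa9 lost its call in thinned counts (0.61, adjusted p = 0.0717), and Slfn5, Dsg3, Tmem106c, Pold4 and Fam122a did with the CP-26xx libraries against those at 3900 or above. Depth and side move together in 2153 and 2208 and cannot be told apart there.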

Other observations

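Of 17 adipocyte markers measured, 4 were higher in the upper libraries of 2208, where 14.3% of all genes were higher, and 0 were lower, while 1 was higher and 1 lower in 2250 and none was called in 2153. The list medians were 2.10 in 2153, 1.54 in 2208 and -2.32 in 2250.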
